A study of Rattus norvegicus with 6 samples.

Results

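The miR-374 and miR-421 cluster is a pair of microRNA (miRNA) hairpins on the rat X chromosome, each of which is cut into a 5p and a 3p arm. Its members were taken by name, as the rows of the deposited table for miR-374, miR-421 or miR-545. This gave 4 of 1289 rows, miR-374-5p, miR-374-3p, miR-421-5p and miR-421-3p, and no row was named miR-545, which is not analysed here. The cluster was selected on the EN and EC levels of miR-374-5p (rno-miR-374-5p in the table), which were lower in EN than in EC in these same libraries, so those levels are a description and carry no p-value. The 3 libraries labelled EN and the 3 labelled EC are of PC12, a cell line from a rat adrenal pheochromocytoma, whose cells can take on neuron-like features. The labels spell out neither abbreviation and give no treatment, time or culture for either group, and the series' title concerns Netrin-1, exosomes of endothelial cells and peripheral nerve repair. Nothing says that replicates came from separate cultures, so the spread between libraries may be technical.

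Mature miRNAs guide silencing complexes to messenger RNAs, which they recognise mainly through the seed at bases 2 to 8. Both hairpins lie within Ftx, a long non-coding RNA gene of the X-inactivation centre that in mouse acts as an activator of Xist. Neighbouring hairpins such as these can be cut from 1 primary transcript, while each arm is loaded and turned over on its own. In human breast cancer cells miR-374a, a relative with the seed of miR-374b, represses inhibitors of Wnt signalling, and the 3p arm of human miR-421 represses the DNA damage kinase ATM.

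The mature sequences, from RefSeq on the GRCr8 assembly, are shown 5′ to 3′ with the seed in capitals, because seed and base composition are what tell the 4 rows apart.
miR-374-5p: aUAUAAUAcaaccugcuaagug
miR-374-3p: cUUAGCACguuguauuauuauu
miR-421-5p: gGCCUCAUuaaauguuuguug
miR-421-3p: aUCAACAGacauuaauuggg
All 4 had different seeds, and none of the 693 RefSeq rat mature names outside each shared its 7-base seed. MiR-505-3p, also of the X chromosome, shared bases 2 to 7 with miR-421-3p. The longest run of bases that miR-374-5p had in common with any other mature sequence was 9, and for the other 3 it was 7 or 8. The newly named rows of the table come with no sequence and could not be compared. A and U made up 68.2 percent of miR-374-5p, 72.7 percent of miR-374-3p, 61.9 percent of miR-421-5p and 65 percent of miR-421-3p.

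The hairpins are shown with the mature arms in capitals, to give the place of each row in its precursor.
Mir374b: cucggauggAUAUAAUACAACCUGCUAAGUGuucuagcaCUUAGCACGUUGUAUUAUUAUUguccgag
Mir421: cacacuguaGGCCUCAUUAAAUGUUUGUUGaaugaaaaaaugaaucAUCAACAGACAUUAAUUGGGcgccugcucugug
Mir374b, the RefSeq symbol of the gene of the miR-374 rows, lies at chrX:72657495-72657562 and Mir421 at chrX:72657339-72657417 (GRCr8, both on the minus strand). They are 77 bases apart, Mir374b is upstream in the direction of transcription, and they are the 2 miRNA genes that RefSeq places within Ftx. Neither overlaps another annotated miRNA gene.

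The EN libraries held 4521694 to 5371351 miRNA counts and the EC libraries 6153582 to 6554639. CPM here means counts scaled by TMM factors to a library's total over the 628 miRNA rows tested in the edgeR fit described below. Of markers for the labelled cell type, miR-7a-5p, typical of neuroendocrine cells, stood at 1235 to 1489 CPM in EN and 974 to 1134 CPM in EC. MiR-218a-5p, of motor neurons and other neural cells, stood at 9115 to 12365 CPM in EN and 8458 to 10015 CPM in EC. MiR-9a-5p, a neural miRNA, stood the other way, at 1002 to 1254 CPM in EN and 1221 to 1640 CPM in EC. The neuronal miR-124-3p had at most 5 counts in any library and the endocrine miR-375-3p at most 20. Of the 5 neuroendocrine and neuronal markers 4 were tested and none passed the edgeR fit described below. Together the 5, mostly miR-218a-5p, took 11860 to 14634 CPM in EN and 11060 to 12413 CPM in EC. Of the endothelial arms, miR-126a-3p stood at 1054 to 1200 CPM in EN and 1007 to 1078 CPM in EC, while miR-126a-5p was lower in EN, at 28.5 to 39.3 CPM in EN and 56.8 to 66.3 CPM in EC (edgeR adjusted p = 0.0471). Summed, both arms stood at 1086 to 1229 CPM in EN and 1064 to 1144 CPM in EC. The sum of 3 blood markers was 20.8 to 32.2 CPM in EN and 7.41 to 11.5 CPM in EC. It was carried by miR-451-5p, of red blood cell precursors, which was higher in EN, at 19.7 to 30.5 CPM in EN and 5.10 to 9.77 CPM in EC (edgeR adjusted p = 0.0471). MiR-142-3p, of the same list, averaged 1.11 CPM in EN and 1.602 CPM in EC, and miR-223-3p had at most 3 counts in any library. With 1 library left out, miR-126a-5p passed only without EC replicate 2, and miR-451-5p passed in 0 of 6 fits. The sum of 3 muscle markers was 1.75 to 2.41 CPM in EN and 1.76 to 30.3 CPM in EC, with miR-1-3p at 0 or 1 count in each library. The liver marker miR-122-5p stood at 8.23 to 14.4 CPM in EN and 5.96 to 9.74 CPM in EC. The part of these cell types in the results on miR-374 was not tested.

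MiR-374-5p was the leading arm of the cluster. It had 6745, 4220 and 4495 counts in the EN libraries, against 11283, 10953 and 12366 in the EC libraries. Scaled, this was 1248, 965 and 985 CPM in EN, against 1743, 1749 and 1889 CPM in EC. The groups did not overlap, EN replicate 1 was the highest of the EN libraries, and the 3 EC libraries lay close together. The mean was 1066 ± 158 CPM in EN and 1793 ± 82.5 CPM in EC (SD, n = 3 each), a log2 fold change of -0.75 (SE 0.13) or a level 40.6 percent lower in EN. In a bulk library a lower level in all cells and a change in fewer cells cannot be told apart.

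MiR-374-3p, the partner strand from the same hairpin, stood at 355, 267 and 306 CPM in the EN libraries, against 316, 477 and 389 CPM in the EC libraries. These groups overlapped, since EC replicate 1 lay below EN replicate 1. The means were 309 ± 43.9 CPM in EN and 394 ± 80.5 CPM in EC (SD, n = 3 each), a log2 fold change of -0.35 (SE 0.19). Without EC replicate 2, the highest library, this became -0.16, and without EN replicate 2, the lowest, -0.22.

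MiR-421-5p, from the neighbouring hairpin, was nearly level between the groups. It stood at 457, 477 and 480 CPM in the EN libraries, against 448.04, 510 and 523 CPM in the EC libraries, and all EN values lay inside the EC range. The means were 472 ± 12.6 CPM in EN and 494 ± 39.9 CPM in EC (SD, n = 3 each), a log2 fold change of -0.07 (SE 0.12) that was 0.01 without newly named rows in the fit.

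MiR-421-3p, the arm that human studies usually mean by miR-421, had few reads. There were 24, 14 and 14 counts in the EN libraries, against 32, 27 and 43 in the EC libraries, or 4.44, 3.20 and 3.07 CPM in EN against 4.94, 4.31 and 6.57 CPM in EC. The ranges overlapped at EN replicate 1 and EC replicate 2. The 52 counts summed over EN have an exact 95 percent Poisson interval of 38.8 to 68.2, and the 102 summed over EC one of 83.2 to 124, both for counting error only. These sums are not scaled for depth, and the EN libraries held fewer miRNA counts than the EC libraries. The intervals are therefore not a comparison of levels. The log2 fold change was -0.55 (SE 0.29), the widest error of the 4 rows, and it was -0.35 without EC replicate 3.

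**Figure D1:**
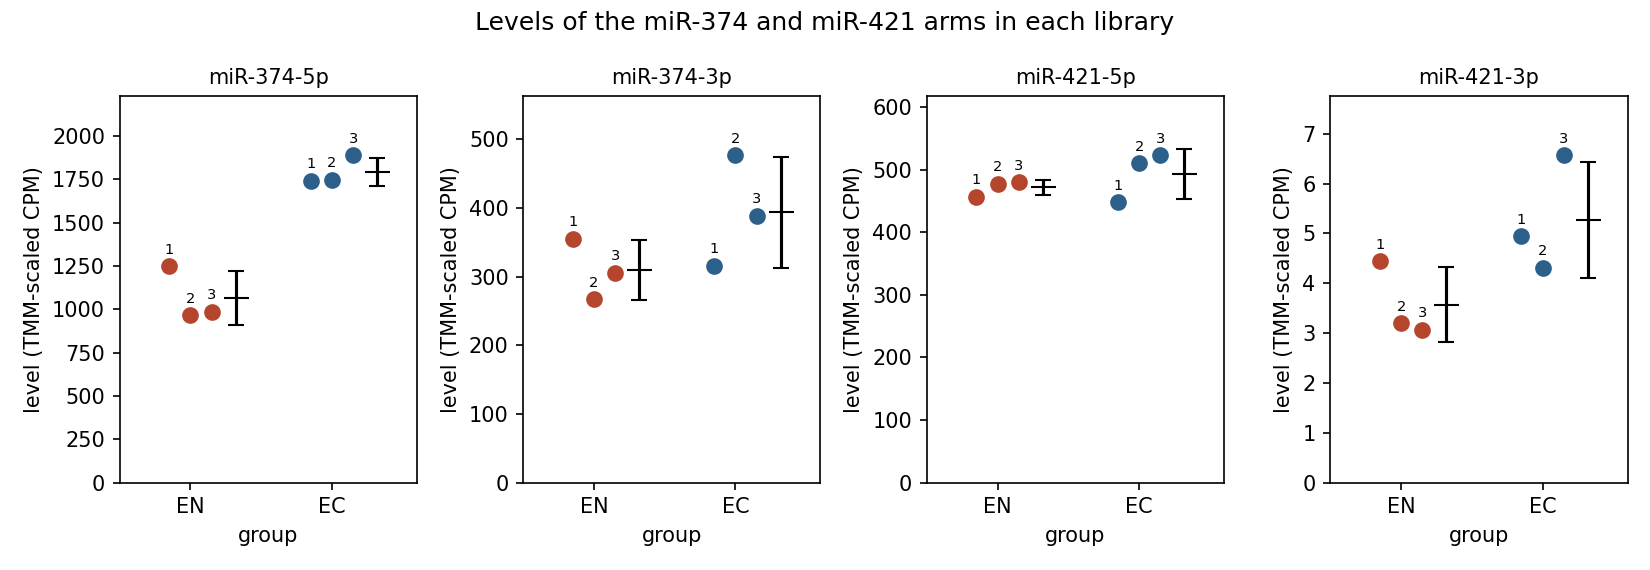
Level of each arm (y axis, TMM-scaled CPM, from 0) in the EN and EC libraries (x axis), with 1 numbered point per library and the mean ± SD beside it. MiR-374-5p lay at 965 to 1248 CPM in EN and 1743 to 1889 CPM in EC, while the other 3 arms overlapped between the groups.

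In level, the order was miR-374-5p, miR-421-5p, miR-374-3p and miR-421-3p, at ranks 65, 97, 107 and 318 of the 584 named rat rows by mean CPM over all 6 libraries. MiR-374-5p exceeded the other arms in every library, and the EC ranges of miR-421-5p and miR-374-3p overlapped, at 448.04 to 523 and 316 to 477 CPM. Within each of the 6 libraries miR-374-3p had fewer counts than miR-421-5p. Just above miR-374-5p in the ranking stood miR-872-3p, miR-340-5p and miR-24-2-5p, with log2 fold changes of 0.21, -0.48 and -0.88. Just below stood miR-320-3p, miR-28-5p and miR-340-3p, at 0.19, -0.60 and -0.03. With TMM factors, rows of like abundance lay on both sides of 0.

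MiR-374-5p took a smaller share of the cluster's counts in EN and miR-421-5p a larger one, with no overlap of the groups for either. The cluster was chosen on miR-374-5p, which is most of this total, and a smaller share of it leaves larger shares to the others. Nothing is therefore read from these shifts, and miR-421-5p itself was nearly level in CPM. MiR-374-5p made up 57.4 ± 2.65 percent of the counts of the 4 rows in EN and 66.8 ± 2.80 percent in EC (SD, n = 3 each). MiR-421-5p made up 25.7 ± 3.11 percent in EN and 18.4 ± 0.45 percent in EC, and miR-374-3p 16.7 ± 0.93 percent in EN and 14.6 ± 2.497 percent in EC. Summed, the 4 rows stood at 1850 ± 188.02 CPM in EN and 2686 ± 155 CPM in EC. Most of this gap lay in the chosen row miR-374-5p, with means of 1066 CPM in EN and 1793 CPM in EC. The CPM of each other arm overlapped between the groups.

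A ratio of 2 rows within a library does not depend on how libraries are scaled. There were 2.73, 2.02 and 2.05 counts of miR-374-5p per count of miR-421-5p in the EN libraries, against 3.89, 3.43 and 3.61 in the EC libraries. The highest EN ratio lay below the lowest EC ratio. Since miR-374-5p was chosen with lower levels in EN, this gap is only a description. On the log2 scale the ratio averaged 1.17 ± 0.24 in EN and 1.86 ± 0.09 in EC (SD, n = 3 each), a difference of -0.70 that ranged from -0.84 to -0.62 with 1 library left out. The ratio of miR-374-3p to miR-421-5p overlapped between the groups, with log2 means of -0.62 ± 0.24 in EN and -0.34 ± 0.22 in EC. Neither ratio to miR-421-5p was among those planned.

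Other neighbouring hairpins give a scale for the gap between miR-374-5p and miR-421-5p. The pairs were of hairpins on the same strand with fewer than 1000 bases between them. Each hairpin was represented by its most abundant arm at a single place in RefSeq, if that arm had 100 CPM or more. Hairpins with no such arm were passed over, so other hairpins may lie between the members of a pair. Among the 15 pairs, the median absolute difference in log2 fold change was 0.34. The pair of miR-374-5p and miR-421-5p differed by -0.68, and 3 pairs differed by more. These were miR-351-5p and miR-322-5p at 0.89, miR-24-2-5p and miR-27a-3p at -0.82, and miR-532-5p and miR-188-5p at 0.76. Here miR-24-2-5p, at 1454 CPM, stood for a hairpin whose main arm is miR-24-3p, at 44106 CPM with a log2 fold change of -0.45. That main arm is not at a single place in RefSeq. The count of 3 larger pairs depends on this choice of arm. Likewise miR-92a-1-5p, paired with miR-20a-5p, stood in for the more abundant miR-92a-3p. The ratio within the pair did not overlap between the groups in 7 of the 15 pairs, 46.7 percent, so a pair that parts in this way was common in these libraries. This comparison was chosen after seeing the data, and miR-374-5p itself was chosen on its EN and EC levels. The place of its pair among the 15 is therefore only a description.

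Within the miR-374 hairpin, the 5p arm led the 3p arm in every library, by 3.52, 3.61 and 3.22 to 1 in EN, against 5.52, 3.67 and 4.86 to 1 in EC. The groups did not overlap, but EC replicate 2 came close to the EN libraries. The 5p arm is the chosen row, so this gap too is only a description. The log2 ratio averaged 1.78 ± 0.09 in EN and 2.21 ± 0.30 in EC (SD, n = 3 each), a difference of -0.42 that ranged from -0.59 without EC replicate 2 to -0.29 without EC replicate 1. Of 92 named hairpins whose arms both averaged at least 20 counts, 15.2 percent had a lower ratio in EN with no overlap, and 20 had a more negative difference than miR-374. In the miR-421 hairpin the 5p arm led by 102.9, 149 and 157 to 1 in EN, against 90.7, 118 and 79.6 to 1 in EC, and the groups overlapped.

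**Figure D2:**
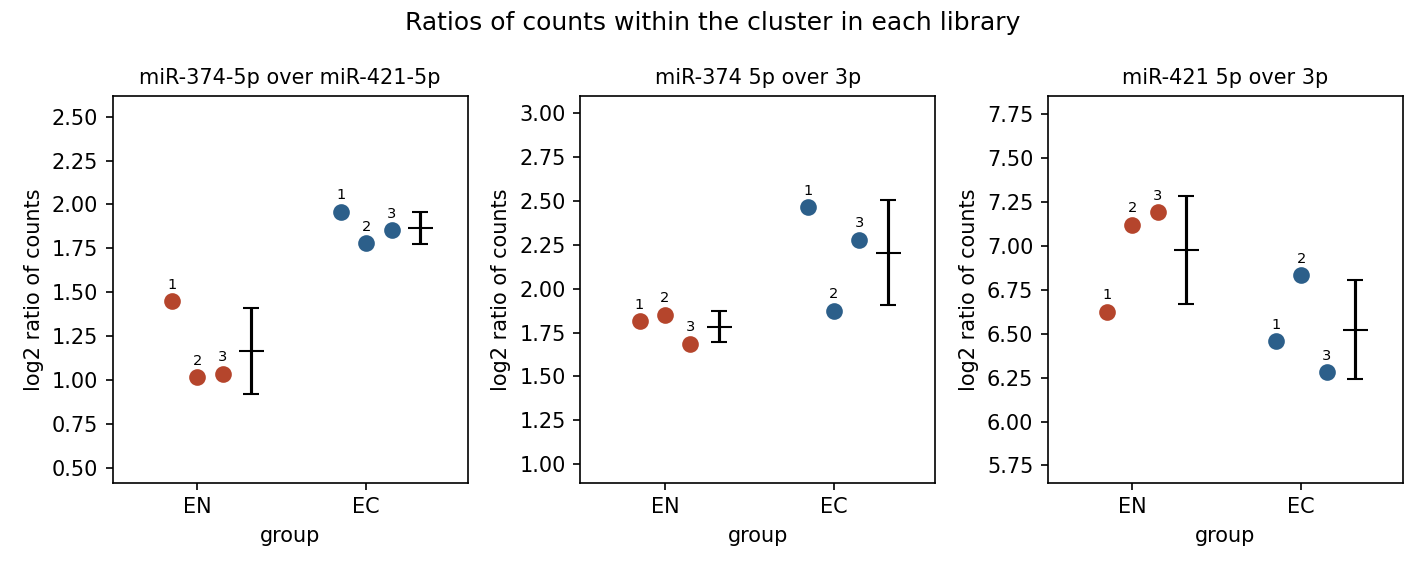
Log2 ratio of counts (y axis, each panel spanning the same number of log2 units) in the EN and EC libraries (x axis) for miR-374-5p over miR-421-5p, the arms of miR-374 and the arms of miR-421, with 1 numbered point per library and mean ± SD. The first ratio averaged 1.17 in EN and 1.86 in EC, and the arms of miR-421 overlapped between the groups. The first ratio and that of the miR-374 arms hold the chosen row miR-374-5p and are descriptions.

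In the edgeR fit over 628 rows, 1 of the 4 rows passed an adjusted p of 0.05 and was lower in EN, the row that the choice of the cluster rests on, against 1.91 percent of all rows tested. The CPM of the groups did not overlap, lower in EN, for 1 of 4 rows, against 14.6 percent of all rows tested. Since the choice used this contrast, nothing is read from these counts. Of the 628 rows, 57 had a more negative log2 fold change than miR-374-5p, 83 than miR-421-3p, 136 than miR-374-3p and 279 than miR-421-5p. The 4 rows had a median of -0.45, against 0.02 over all rows tested and -0.07 over the 380 named rows among them. This median includes the chosen row and is likewise only a description. MiR-374-5p no longer passed without EC replicate 1, EC replicate 2, EC replicate 3, EN replicate 2 or EN replicate 3, with log2 fold changes of -0.76, -0.74, -0.69, -0.65 and -0.70, and it passed without EN replicate 1 at -0.88.

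**Figure D3:**
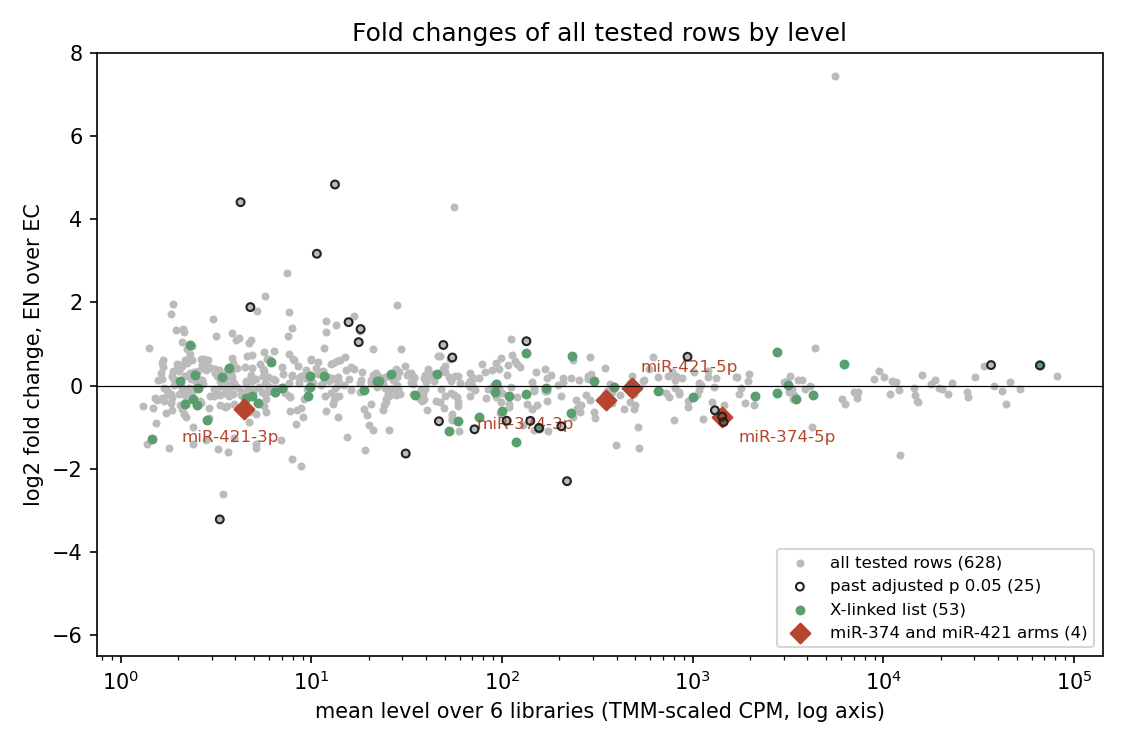
Log2 fold change of EN over EC (y axis) against mean level over the 6 libraries (x axis, CPM, log axis) for all 628 tested rows, with the 25 rows past the threshold circled, the X-linked list in green and the 4 arms as red diamonds. The 4 arms lay between -0.75 and -0.07, all below the median of 0.02.

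The authors' deposited RPM values divide by a larger total than the miRNA counts, and miRNA counts were 24.99 to 26.9 percent of that total in EN and 30.9 to 32.6 percent in EC. On this scale all 4 rows were lower in EN with no overlap, as were 33.9 percent of all rows tested. MiR-374-5p stood at 337, 233 and 252 RPM in EN, against 572, 573 and 583 RPM in EC. MiR-421-5p stood at 124, 115 and 123 RPM in EN, against 147, 167 and 161 RPM in EC. The median log2 fold change of all rows was -0.30 with these totals, and those of miR-374-5p and miR-421-5p were -1.07 and -0.40. Which total reflects the cells cannot be told apart from these files, whereas the ratio of miR-374-5p to miR-421-5p is the same under both.

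**Figure D4:**
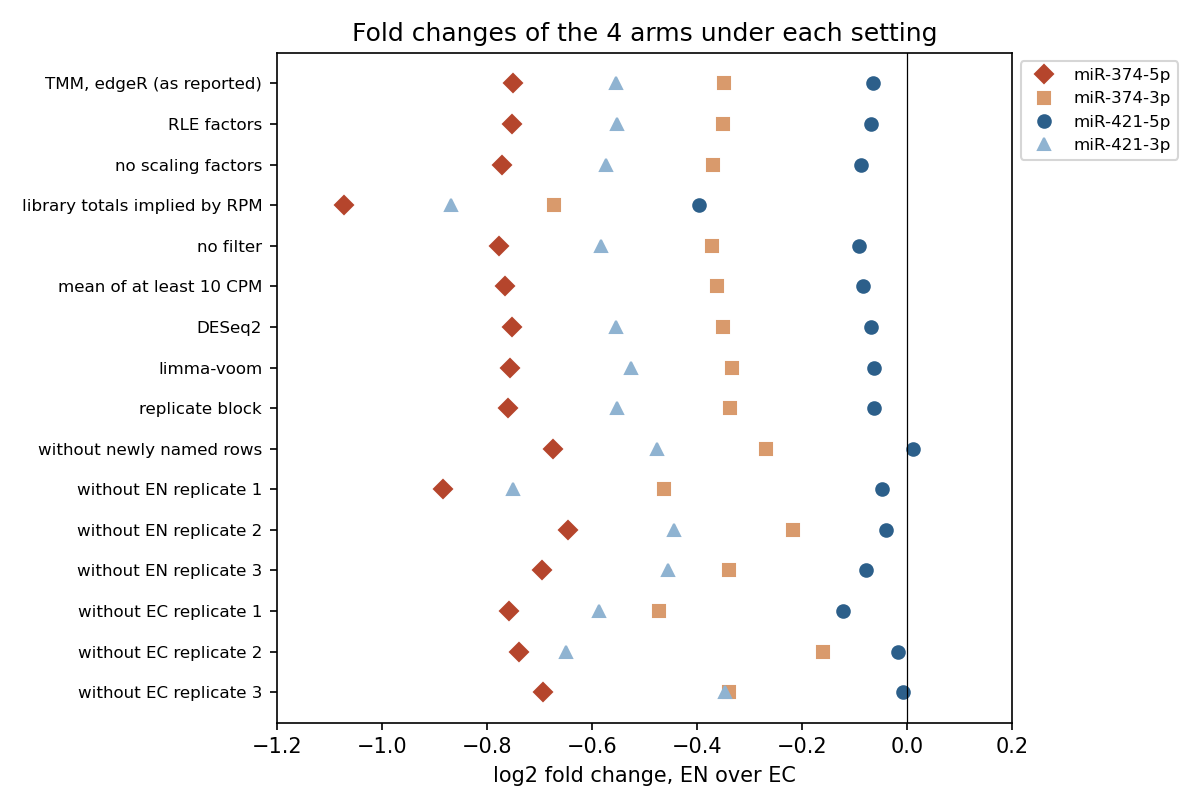
Log2 fold change of EN over EC (x axis) for each of the 4 arms under the reported setting and each alternative (y axis). MiR-374-5p lay between -1.07 and -0.65 in all of them, and miR-421-5p between -0.40 and 0.01.

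Other miRNAs of the X chromosome had fold changes of both signs. Of a list of 73 X-linked rows, which leaves out miR-374 and miR-421, RefSeq matched 70 and placed all 70 on X, and 53 were tested. Their median log2 fold change was -0.14, against -0.07 over the 380 named rows tested and 0.02 over all rows. Negative values made up 33 of the 53, or 62.3 percent, against 57.4 percent of the named rows and 49.2 percent of all rows. In the edgeR fit with Benjamini-Hochberg adjusted p-values, 1 rose, against 2.07 percent of all rows tested, and 1 fell, against 1.91 percent. MiR-222-3p, which is encoded with miR-221 and targets the cell cycle inhibitor p27, rose with a log2 fold change of 0.48 (SE 0.07, adjusted p = 0.0167). MiR-188-5p, of a cluster in a Clcn5 intron, fell with one of -1.02 (SE 0.21, adjusted p = 0.0489). With 1 library left out, the lower call was lost in all fits but that without EC replicate 2, where 5 were lower, and the higher call was lost without EN replicate 2 or EN replicate 3. Of the 8 most abundant X-linked rows, those besides miR-222-3p were miR-221-3p at 0.51, miR-652-3p at 0.80, miR-542-5p at 0.0041, miR-384-5p at -0.23, miR-98-5p at -0.33, miR-322-5p at -0.17 and miR-384-3p at -0.26 on the log2 scale, and none passed. With library totals implied by RPM, which moved the median of all rows, 11 X-linked rows were lower and 0 higher, with a median of -0.47. In 7 of the 53 the log2 fold change was lower than that of miR-374-5p.

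Rows rich in A and U, as these arms are, had lower log2 fold changes than other rows. The median was -0.29 over the 34 tested rows with 65 percent or more A and U, which include miR-374-5p, miR-374-3p and miR-421-3p, and -0.26 over the 31 rows without these. It was -0.12 over the 103 rows of 55 to 65 percent, which include miR-421-5p, -0.03 over the 140 rows of 45 to 55 percent, and 0.11 over the 67 rows under 45 percent, which turned to -0.22 with library totals implied by RPM, where the rows of 65 percent or more stood at -0.60. Among rows of 65 percent or more, 27 of 34 were negative, or 79.4 percent, and 5 lay below miR-374-5p. The ranges of 55 to 65, 45 to 55 and under 45 percent had 67.0, 50.7 and 47.8 percent negative. In these, 16 of 103, 8 of 140 and 7 of 67 rows lay below miR-374-5p. The median of the rows of 65 percent or more moved to -0.47 without EN replicate 1 and to -0.11 without EN replicate 2. Over rows of 100 CPM or more, a setting chosen after seeing the data, the 4 medians were -0.27, -0.09, -0.01 and 0.12 in the same order. Across all 344 rows with a sequence, Pearson's r between A and U content and log2 fold change was only -0.08 and Spearman's rho -0.19, a description across rows that share libraries. Over the 154 rows of 100 CPM or more among these, r was -0.02 and rho -0.18. Both sets include miR-3596a, of 63.6 percent A and U, which had the largest log2 fold change, 7.45 (SE 2.86), and did not pass. Pearson's r is more sensitive to such a row than rho. The part of base composition in the levels of miR-374 was not tested.

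**Figure D5:**
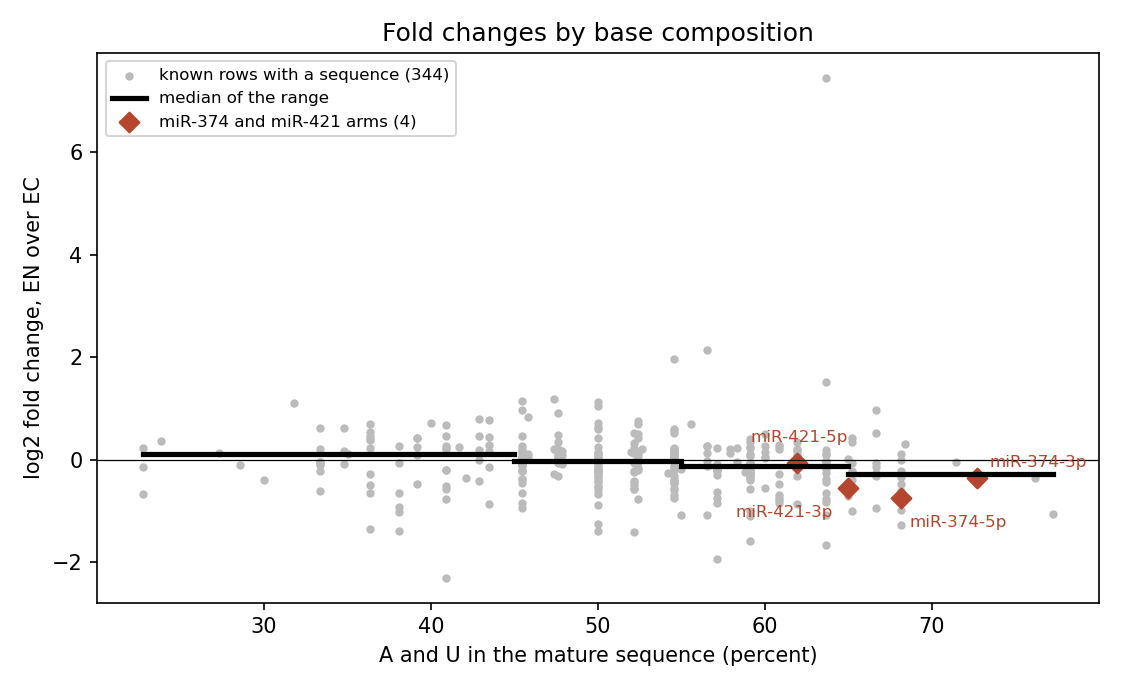
Log2 fold change of EN over EC (y axis) against the share of A and U in the mature sequence (x axis, percent) for the 344 tested named rows with a RefSeq sequence, with the median of each range as a black bar and the 4 arms as red diamonds. The medians run from 0.11 under 45 percent to -0.29 at 65 percent or more.

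The rows whose levels ran most like those of miR-374-5p were sought among 165 other named rows of 100 CPM or more, by Pearson's r of log2(CPM + 1) over the 6 libraries, which includes the difference between the groups. The 5 highest were miR-362-5p (r = 0.98), miR-32-5p (r = 0.97), miR-9a-3p (r = 0.97), miR-28-5p (r = 0.95) and miR-338-3p (r = 0.95), and 13 rows reached 0.9. MiR-362-5p, the highest, spanned little, with 125 ± 6.40 CPM in EN and 144 ± 4.29 CPM in EC (SD, n = 3 each). MiR-32-5p, like miR-374-5p 68.2 percent A and U, stood at 138 ± 20.1 CPM in EN and 272 ± 29.1 CPM in EC. MiR-9a-3p, whose hairpin also yields the neural miR-9a-5p, stood at 128 ± 20.002 CPM in EN and 178 ± 11.2 CPM in EC. By Pearson's r the cluster's own arms ranked lower, miR-374-3p at 41 with r = 0.72 and miR-421-5p at 77 with r = 0.35. By Spearman's rho this did not hold for miR-374-3p, whose rho of 0.89 equalled that of miR-362-5p and exceeded those of miR-32-5p, miR-28-5p and miR-338-3p, while miR-421-5p had 0.49. With Spearman's rho, 48 rows reached the lowest value of the 5, which was 0.66, so 6 libraries order these rows only loosely.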

How the data were processed

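The table the authors deposited holds raw read counts per mature miRNA and library. It also holds the authors' RPM values, scaled to a larger total per library. HISAT2 2.0.5 and Rnor 6.0 appear in the submitters' processing notes. How reads were counted, by which annotation and strand rule: not given in the sources used here. RNA was extracted with Trizol and made into Illumina TruSeq libraries, per the labels' protocols. EN was compared with EC with edgeR 4.0.16 in R 4.3.3 (filterByExpr, TMM factors, robust quasi-likelihood test, Benjamini-Hochberg adjustment over 628 rows, threshold 0.05), after a check on simulated counts. Each SE is the absolute log2 fold change over the square root of F. All 4 rows of the cluster passed the filter. Ratios are log2 of counts + 1. Sequences came from RefSeq tables of GRCr8, matched by name for 530 of 584 named rows, and GRCr8 coordinates are not those of Rnor 6.0. The members, lists and tests were chosen with earlier results of these data known. Rows named were the cluster, the 5 most like miR-374-5p, 3 above and 3 below it in level, X-linked rows that passed or were among the 8 most abundant, and cell markers; the neighbouring pairs were named after their values were seen. Alternatives used limma 3.58.1 (voom) and DESeq2 1.42.0. Tables and figures were made in Python 3.11.15 with pandas 2.3.3 and matplotlib 3.10.9, and Poisson intervals with scipy 1.17.1.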

Additional observations from a re-analysis of the deposited data

How the results depend on the processing

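MiR-374-5p kept its direction in all 15 alternatives and passed in 9. In the fit with a replicate block it was at -0.76 and did not pass, and without 1 library it ranged from -0.88 to -0.65. MiR-374-3p and miR-421-3p kept a negative sign in every alternative that tested them and passed in none. Without 1 library they ranged from -0.47 to -0.16 and from -0.75 to -0.35. MiR-421-5p turned to 0.012 without newly named rows, and ranged from -0.12 to -0.0087 without 1 library. A mean of at least 10 CPM left miR-421-3p out. The cause was not tested.

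The 25 calls over all rows, 12 lower and 13 higher in EN, became 101 (88 lower) with library totals implied by RPM, 44 (23 lower, 21 higher) without a filter, 88 (49 lower, 39 higher) with DESeq2, which gave 152 rows no adjusted p, and 2 (1 lower, 1 higher) with the replicate block. Without 1 library there were 2 to 39 calls, 0 to 26 lower and 2 to 23 higher. Same-numbered libraries had deviations correlated at 0.091, -0.036 and 0.018, so the numbers were not taken to pair them. Lower calls among X-linked rows were 2 with total counts or a mean of 10 CPM, 11 with totals implied by RPM, 4 without a filter, 7 with DESeq2, 0 with the block and 0 to 5 without 1 library. Higher calls were 0 with totals implied by RPM or the block, 2 without a filter or with DESeq2, and 0 to 1 without 1 library. The X-linked median stayed negative, from -0.47 to -0.06. With totals implied by RPM the medians by A and U content were -0.22 under 45 percent, -0.33, -0.46 and -0.60 at 65 percent or more, a shift that the changed divisor makes by construction; without 1 library the last ranged from -0.47 to -0.11. A pseudocount of 0.5 moved no ratio by more than its SD. Depth limits miR-421-3p, at 14 to 43 counts.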
